A study of Homo sapiens with 12 samples.

Results

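The comparison described here is LoVo, a human colorectal cancer cell line, labelled as SLERT knockdown against its control. It takes 6 of the 12 libraries of the series, chosen by their column headings in the deposited count table: 3 headed as the control of the short hairpin RNA (shRNA) and 3 headed as the shRNA. Of the 62656 genes in that table, 16253 passed a filter on low counts within these 6 libraries and were tested. The series title concerns liver metastasis, the kinase HUNK and RBM15, a factor of the m6A RNA methylation complex. The other 6 libraries are from HCT116 and were not used here. Both groups are the same line, and the labels give no clone, hairpin sequence, time after knockdown or selection agent. The labels are silent on whether replicates were separate cultures, and p-values therefore gauge spread that may be technical. In bulk RNA, fewer cells that express a gene and less RNA per cell cannot be told apart.

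SLERT is a long non-coding RNA that is processed from introns of TBRG4. It keeps a box H/ACA small nucleolar RNA at each end in place of a cap and a poly(A) tail. As background, it binds the helicase DDX21 in the nucleolus and loosens the DDX21 ring around RNA polymerase I, the enzyme that makes ribosomal RNA. The terminal snoRNAs are SNORA5A and SNORA5C, and they are the only stretches of SLERT with genes of their own in the count table. Their sequences are shown because the counts at these genes are the nearest check of the labels. They are taken from GENCODE v29 transcripts on GRCh38, with the ACA box, 3 bases from the 3′ end, in capitals.
SNORA5A (chr7:45104349-45104482, minus strand): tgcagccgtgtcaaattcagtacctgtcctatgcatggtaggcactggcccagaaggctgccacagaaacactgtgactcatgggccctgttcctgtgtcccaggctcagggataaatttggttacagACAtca
SNORA5C (chr7:45104906-45105042, minus strand): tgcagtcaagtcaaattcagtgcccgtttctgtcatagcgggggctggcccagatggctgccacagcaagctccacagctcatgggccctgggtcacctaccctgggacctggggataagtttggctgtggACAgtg

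The locus did not separate the groups. SNORA5C had 9, 9 and 19 counts in the control libraries and 11, 14 and 12 in the libraries labelled SLERT knockdown (KD), a log2 fold change of -0.02 ± 0.43 (SE, adjusted p = 0.98). The counts of the groups overlapped. SNORA5A had 3, 7 and 2 counts against 1, 8 and 1 and was below the filter (exact two-sided permutation test on CPM, p = 0.6, with 0.1 the smallest p that 3 against 3 allows). TBRG4, the host gene, which encodes a mitochondrial RNA-binding protein, stood at 228, 223 and 224 CPM (counts scaled to library size) in the controls and 255, 222 and 232 CPM in the KD libraries (log2 fold change 0.07 ± 0.06, adjusted p = 0.413). With an offset for GC content, described below, TBRG4 was higher with KD (0.17, adjusted p = 0.0039). The middle of SLERT lies within the span of TBRG4 and has no gene of its own here. Reads from it cannot be told apart from those of TBRG4. A fall of SLERT itself was therefore not measured, and "KD" below means only what the labels say.

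Total counts ran from 14.46 to 16.11 M per library. Levels are CPM after TMM scaling, given as mean ± SD of a group (n = 3). Changes are log2 fold changes, KD over control, from edgeR's quasi-likelihood fit, with the standard error (SE) and a p-value adjusted by Benjamini and Hochberg over all genes tested. A gene is called, or said to rise or fall, at an adjusted p under 0.05. By that rule 4278 of the 16253 genes were called (26.3%), 2050 higher (12.6%) and 2228 lower (13.7%). In 6456 genes (39.7%) the CPM of the groups did not overlap, and 4069 of the called genes were among them. Most changes were small: the median size among called genes was 0.36 on the log2 scale, 1796 of them (42.0%) changed by less than 1.25-fold, and 380 changed by 2-fold or more, 119 higher and 261 lower.

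**Figure D1:**
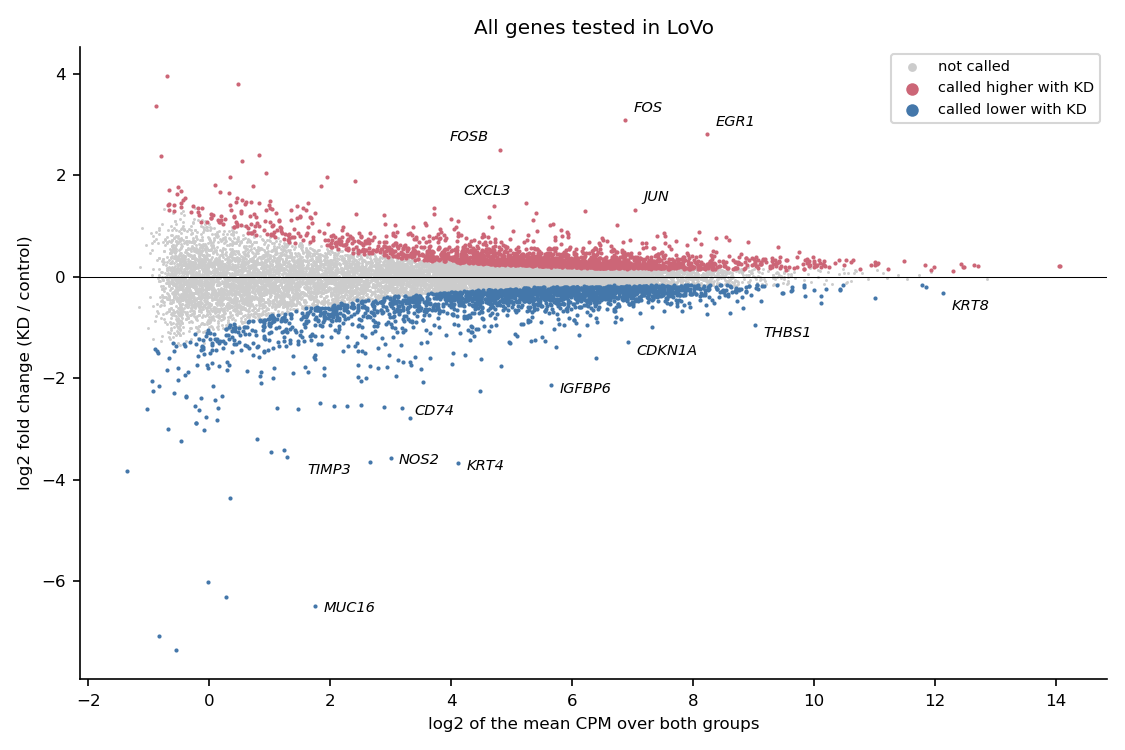
Log2 fold change of KD over control (vertical axis) against the log2 of the mean CPM (horizontal axis) for the 16253 genes tested, with called genes in red (2050 higher) and blue (2228 lower). Among well-expressed genes, FOS, EGR1 and FOSB stand furthest above the rest, and MUC16, KRT4, TIMP3 and NOS2 furthest below.

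The direction of change followed the GC content of the transcript. Among 10373 genes with an average log2 CPM over 3, log2 fold change and GC content of the longest transcript correlated at a Spearman rho of -0.57 across genes, which are not independent replicates, while transcript length gave 0.03. In the quintile of genes with the lowest GC content (30.2 to 40.8%) the median log2 fold change was 0.16, and 93.4% of the calls were higher with KD. In the quintile with the highest (58.0 to 73.9%) it was -0.21, and 6.2% of the calls were higher. The slope of level on GC content was positive in the 3 control libraries, at 0.11, 0.04 and 0.09 log2 units per 10% of GC. In the KD libraries it was 0.00, -0.16 and -0.07, so every KD library lay below every control library, and KD library 2 lay furthest from the others. Whether this slope comes from library preparation or from the cells was not tested.

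**Figure D2:**
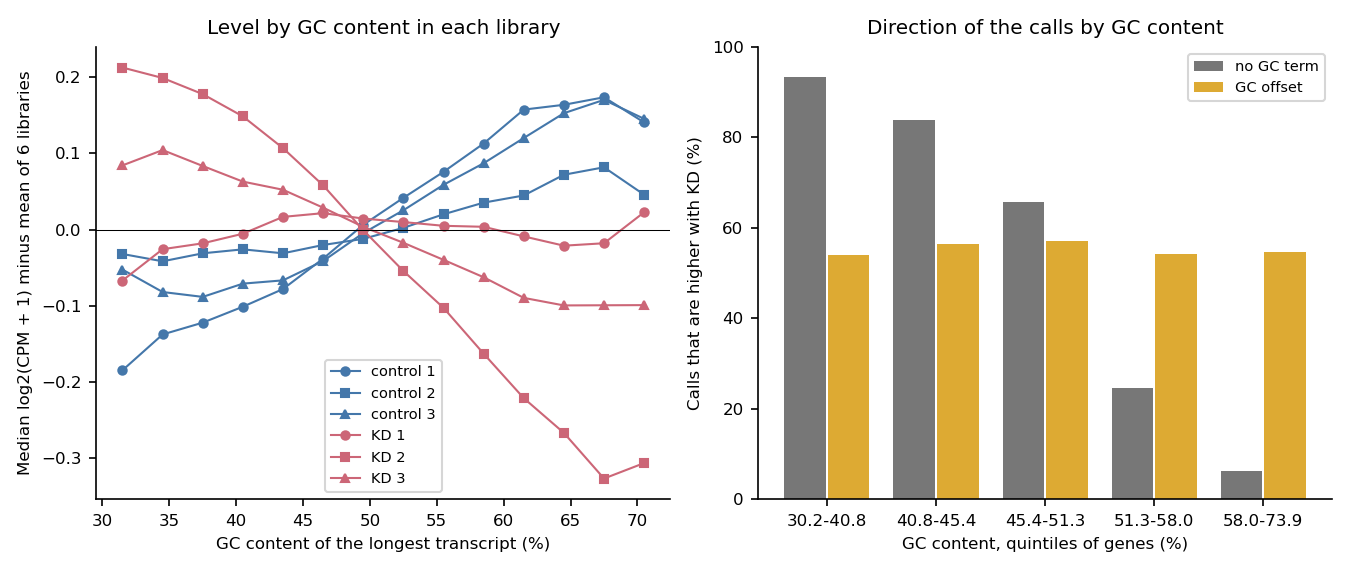
Left, the median of log2(CPM + 1) relative to the mean of the 6 libraries (vertical axis) in bins of transcript GC content (horizontal axis, %), 1 line per library, controls blue and KD red. Right, the percent of calls that are higher with KD in each quintile of genes by GC content, which falls from 93.4% to 6.2% without a GC term (grey) and lies between 53.9% and 57.1% with the GC offset (yellow).

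A second fit therefore carried a per-library smooth curve on GC content as an offset. This fit was added after the data were seen. It called 3520 of 15771 genes (22.3%), 1875 higher (11.9%) and 1645 lower (10.4%). Of the 4278 calls, 2523 (59.0%) were made in the same direction by both fits, and of the 380 calls of 2-fold or more, 345 (90.8%) were. The offset removes any real change that runs along GC content as well, so neither fit is the more correct by construction, and the counts with the GC offset are given beside each gene group. Genes are named as changed below where both fits called them, and the text says where only the fit without the offset did. Where a fit without 1 library moved the count of a list's called members by over 1.5 times and by 3 or more, that library is named. Counts of 5 or fewer rest on single genes. A call is said to be lost without a library where the fit without that library did not make it.

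**Figure D3:**
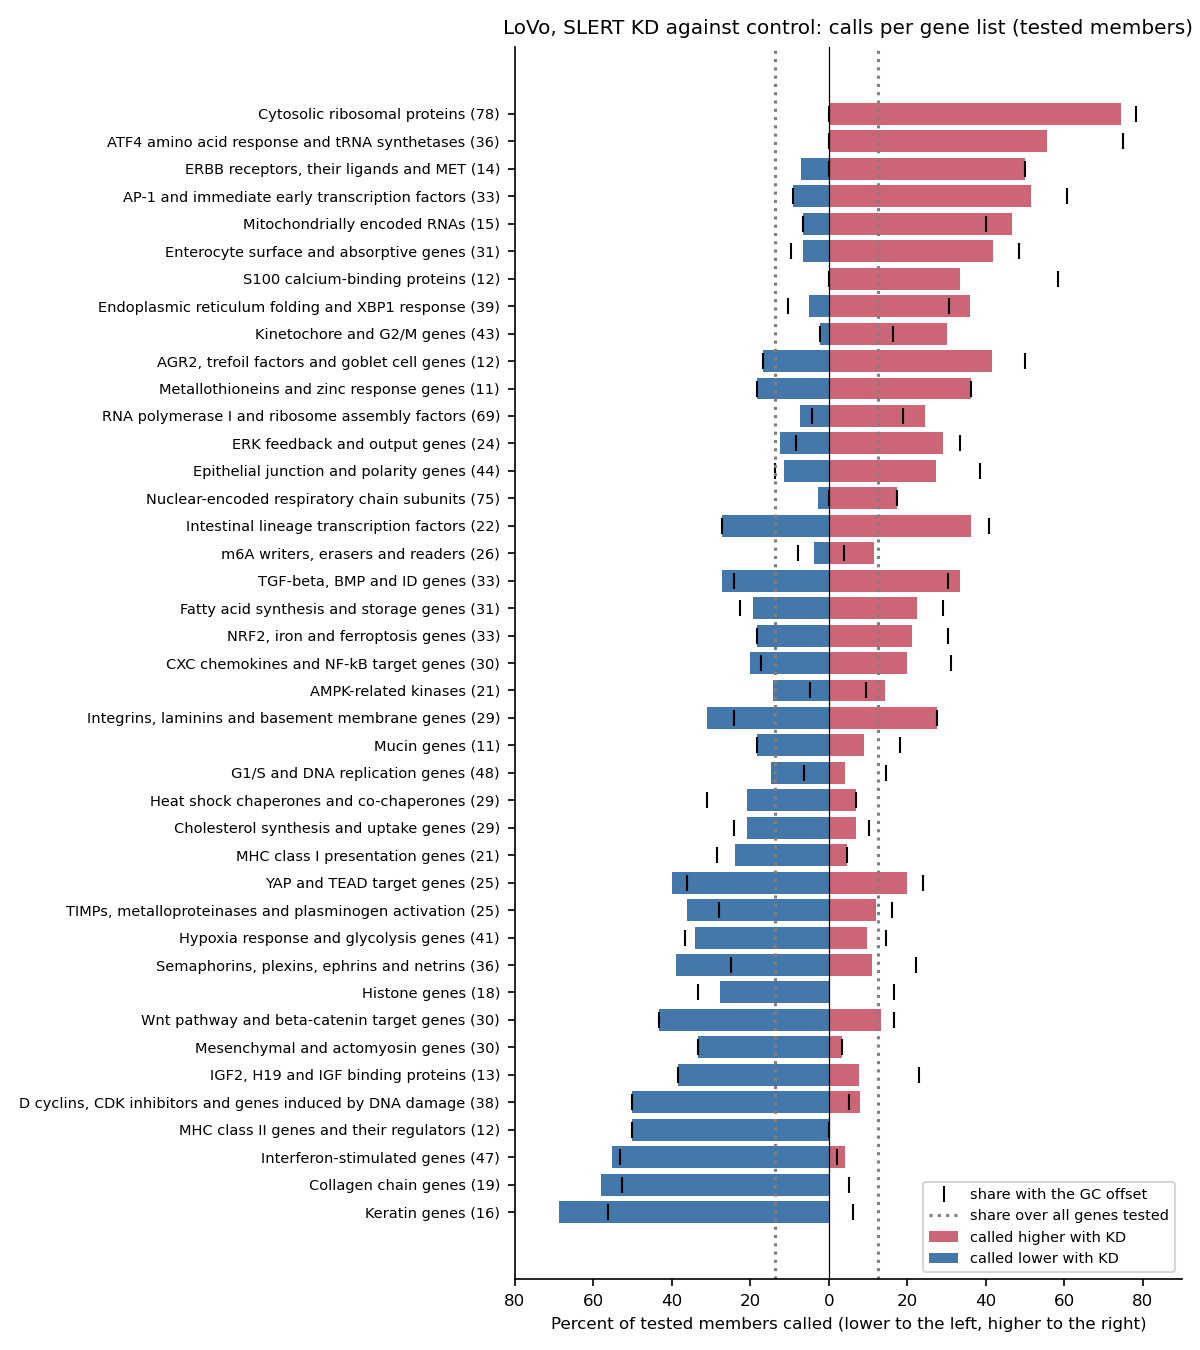
Percent of the tested members of each of 41 gene lists (number tested in parentheses) that were called higher (red, right) or lower (blue, left) with KD. Dotted lines mark 12.6% and 13.7%, the shares over all genes tested, and black ticks the shares with the GC offset.

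Immediate early transcription factors gave the largest rises among well-expressed genes. These genes are transcribed within minutes of growth factor or stress signals, mostly through the ERK pathway acting on ETS-type factors and SRF at CArG boxes and through CREB at cyclic AMP response elements (CRE). Of 33 tested members of the list of AP-1 and immediate early factors, 17 rose (51.5%) and 3 fell (9.10%), with a median log2 fold change of 0.22 against 0.00 over all genes tested. With the GC offset, 20 rose and 3 fell.

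The promoters of EGR1, FOS and FOSB, the members with the largest rises among those above 1 CPM in the controls, are shown for the elements they carry. Each is the 250 bases before the start site (RefSeq, GRCh38.p14), with CArG boxes and the CRE core TGACG, on either strand, in capitals.
EGR1 (chr5:138465229-138465478, plus strand): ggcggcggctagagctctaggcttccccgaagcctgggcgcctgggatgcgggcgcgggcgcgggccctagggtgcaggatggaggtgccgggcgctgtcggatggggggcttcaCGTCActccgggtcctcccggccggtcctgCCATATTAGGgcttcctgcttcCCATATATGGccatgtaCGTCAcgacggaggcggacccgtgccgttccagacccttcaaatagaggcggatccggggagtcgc
FOS (chr14:75278578-75278827, plus strand): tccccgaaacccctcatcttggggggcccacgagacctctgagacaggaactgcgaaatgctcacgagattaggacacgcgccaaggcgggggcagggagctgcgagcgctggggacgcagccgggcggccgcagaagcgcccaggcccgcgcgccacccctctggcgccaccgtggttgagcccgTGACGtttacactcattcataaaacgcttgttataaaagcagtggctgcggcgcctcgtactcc
FOSB (chr19:45467746-45467995, plus strand): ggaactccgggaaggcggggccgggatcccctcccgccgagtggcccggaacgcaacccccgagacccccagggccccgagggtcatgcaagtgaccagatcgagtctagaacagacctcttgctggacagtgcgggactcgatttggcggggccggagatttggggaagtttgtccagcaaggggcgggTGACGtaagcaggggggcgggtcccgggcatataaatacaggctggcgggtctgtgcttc
EGR1 held both kinds of element, and FOS and FOSB held the CRE core. TGACG was in 16 of the 27 promoters of the list that the RefSeq table holds (59.3%). It was in 7 of the 13 whose genes rose (53.8%) and in 2 of the 3 whose genes fell. Of the 11245 promoters of tested genes 29.3% held it, and of all 27305, 21.7%. CArG boxes were in 2 of the 27 (EGR1 and SRF) against 1.14% of all. A match is a string of letters, not a site shown to be used. Elements outside these 250 bases were not searched for, so a promoter without a match here may hold one further away.

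FOS, a basic leucine zipper partner of JUN in AP-1, was at 28.9, 22.1 and 22.7 CPM in the controls and 217, 195 and 219 CPM in the KD libraries. The highest control lay well below the lowest KD library, and the means differed 8.56-fold (log2 fold change 3.10 ± 0.09, adjusted p = 1.08e-17). EGR1, a zinc finger factor, went from 84.4, 65.8 and 74.4 CPM to 578, 480.1 and 520.0 CPM, 7.03-fold (2.81 ± 0.08, adjusted p = 1.08e-17). It was also among the 12 called genes that gained most CPM. FOSB, a close relative of FOS, rose from 8.37 ± 2.16 to 47.6 ± 0.847 CPM (2.51 ± 0.12, adjusted p = 3.43e-13). JUN rose from 76.5, 72.5 and 76.7 CPM to 202, 173 and 193 CPM (1.33 ± 0.07, adjusted p = 9.3e-13), and JUNB from 43.7 ± 1.11 to 78.1 ± 7.30 CPM (0.84 ± 0.08). The groups did not overlap in any of these genes. EGR2, a low-expressed relative of EGR1, had 33 counts in all in the controls and 139 with KD (2.05 ± 0.46, adjusted p = 0.00199), and was not called by DESeq2 (adjusted p = 0.217) or by limma on log2(FPKM + 1) and log2(FPKM + 0.1) (adjusted p = 0.0555 and 0.111). EGR3, another relative, was near 0 in the controls (0.0671 ± 0.0662 CPM) and at 1.17 ± 0.294 CPM with KD. ZFP36, an RNA-binding protein that speeds the decay of short-lived messages, rose by 1.05 ± 0.10, IER2 by 0.90 ± 0.09 and KLF6 by 0.63 ± 0.06. KLF4, a factor of differentiated gut epithelium, fell (-0.28 ± 0.07, adjusted p = 0.00315). FOSL2 (-0.23, lost without control 1 and control 3 with adjusted p up to 0.0911) and IER5 (-0.26, lost without KD 2 and control 3 with adjusted p up to 0.0978) also fell. Without control 3, 1 member fell in place of 3, and without KD 1, 5 did.

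The feedback genes that ERK signalling induces moved less uniformly. Of 24 tested, 7 rose and 3 fell (8 and 2 with the GC offset). DUSP1 and DUSP5 are phosphatases that switch off MAP kinases. DUSP1 rose from 11.8, 10.2 and 11 CPM to 24.7, 24.1 and 21.8 CPM (1.10 ± 0.11, adjusted p = 7.52e-08) and DUSP5 from 123 ± 5.58 to 217 ± 5.01 CPM (0.82 ± 0.06). TRIB1, a pseudokinase, rose by 0.44 ± 0.06 and PHLDA2, a PH-domain protein, by 0.54 ± 0.09. DUSP7 (-0.43 ± 0.09, adjusted p = 0.00167) and SPRED3, an inhibitor of RAS signalling (-0.76 ± 0.18), fell. ETV4, an ETS factor, fell without the offset (-0.32, adjusted p = 0.00152) and was not called with it (-0.11, adjusted p = 0.164).

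Several ligands of the ERBB receptors rose, while ERBB3 was the only receptor of the list called by both fits. These ligands are made as membrane precursors and released by proteases to act on EGFR and ERBB4. Of 14 tested members of the list, 7 rose and 1 fell (7 and 0 with the GC offset). AREG was at 127, 129 and 136 CPM in the controls and 232, 246 and 234 CPM with KD (1.81-fold, 0.86 ± 0.06, adjusted p = 2.13e-10). EREG rose from 195 ± 12.3 to 326 ± 40.8 CPM (0.74 ± 0.07), HBEGF from 11.3 ± 1.40 to 22.4 ± 1.23 CPM (0.98 ± 0.11) and BTC from 21.7 ± 2.05 to 30.1 ± 2.93 CPM (0.47 ± 0.10). ERRFI1, an inhibitor of EGFR that is itself induced by the pathway, rose by 0.31 ± 0.06. EGFR was at 312 ± 13.2 CPM against 337 ± 7.19 CPM (0.11 ± 0.06, adjusted p = 0.152) and was not called. The receptor ERBB3 rose (0.20 ± 0.06, adjusted p = 0.0131), and was not called without control 2 or control 3 (adjusted p up to 0.0784). The receptor ERBB2 fell by the fit without the offset only (-0.26, adjusted p = 0.0123; -0.11, adjusted p = 0.136 with it). Without control 1, its adjusted p was 0.102.

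**Figure D4:**
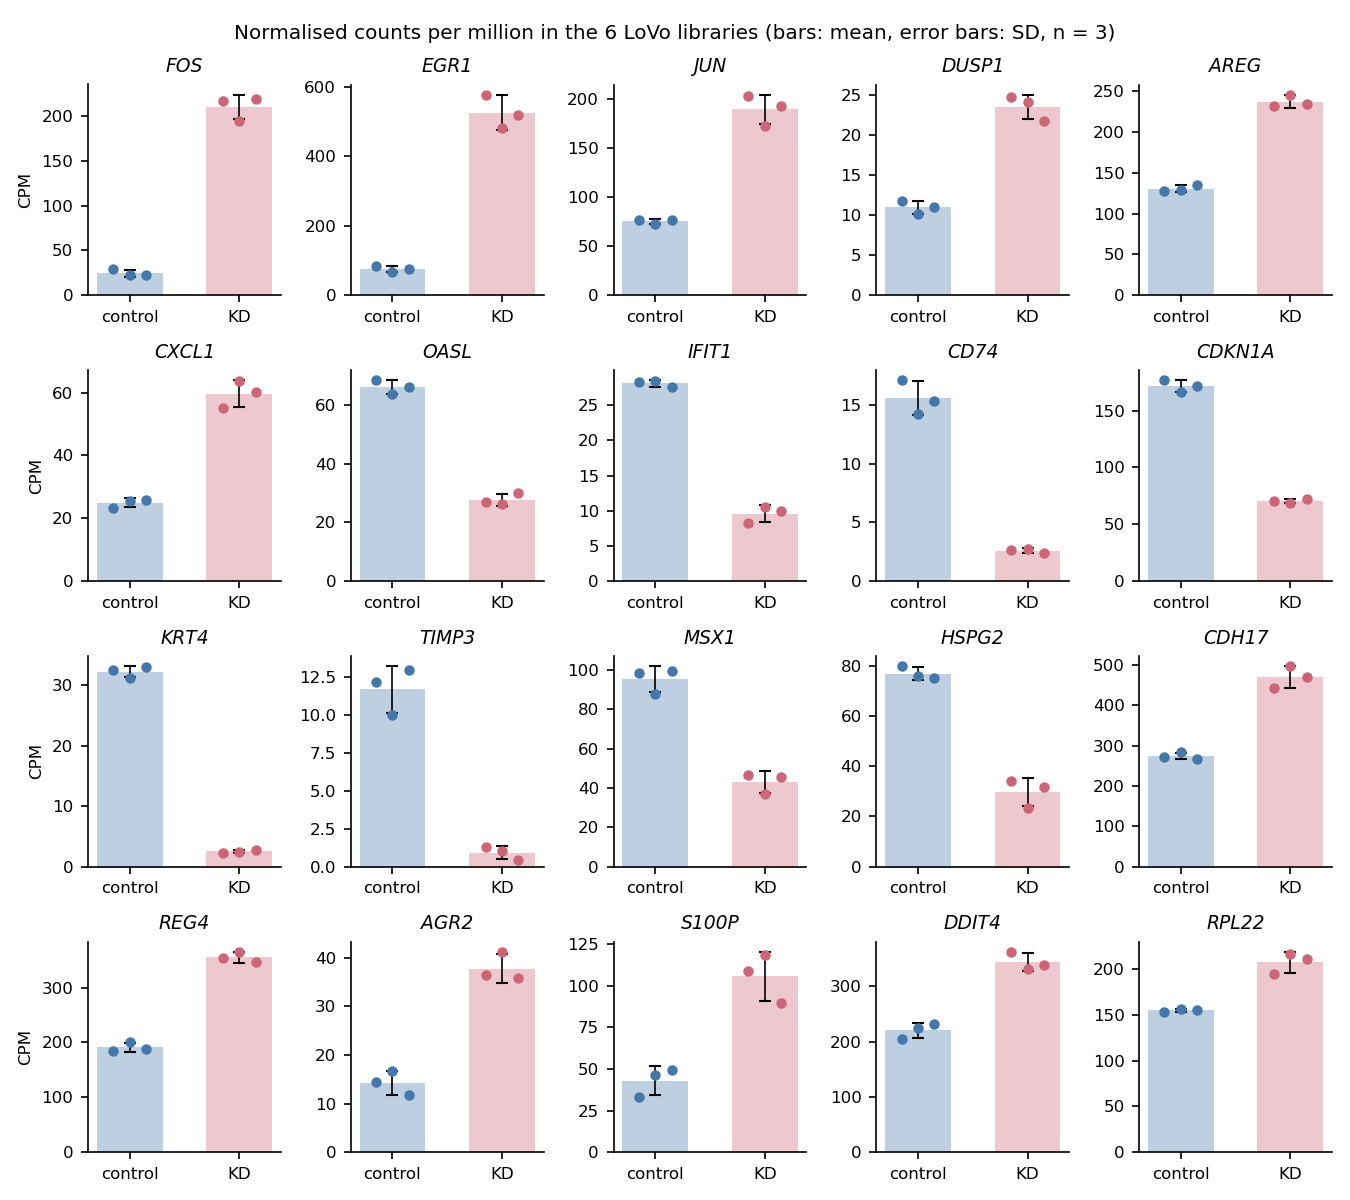
CPM of 20 genes in each of the 6 LoVo libraries (points), with the group mean (bar) and SD (error bar, n = 3), each panel from 0. In every panel the 3 controls (blue) and the 3 KD libraries (red) are apart.

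Chemokines of the CXCL1 group rose. They are secreted proteins that draw neutrophils through the receptor CXCR2, and NF-kappaB drives their genes. The promoters of CXCL1, CXCL2 and CXCL3 are shown because the 3 genes are near copies of each other. The 250 bases before each start site are given (RefSeq, GRCh38.p14), with the kappaB site in capitals.
CXCL1 (chr4:73869143-73869392, plus strand): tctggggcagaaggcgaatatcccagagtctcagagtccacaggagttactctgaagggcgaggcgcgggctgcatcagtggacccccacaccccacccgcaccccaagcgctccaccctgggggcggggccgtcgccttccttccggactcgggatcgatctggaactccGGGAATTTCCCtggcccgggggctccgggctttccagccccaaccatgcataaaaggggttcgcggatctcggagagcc
CXCL2 (chr4:74099196-74099445, minus strand): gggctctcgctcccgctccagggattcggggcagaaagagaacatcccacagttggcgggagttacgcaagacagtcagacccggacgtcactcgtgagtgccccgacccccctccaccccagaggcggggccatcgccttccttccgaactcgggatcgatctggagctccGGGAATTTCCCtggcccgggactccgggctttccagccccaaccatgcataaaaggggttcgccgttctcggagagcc
CXCL3 (chr4:74038690-74038939, minus strand): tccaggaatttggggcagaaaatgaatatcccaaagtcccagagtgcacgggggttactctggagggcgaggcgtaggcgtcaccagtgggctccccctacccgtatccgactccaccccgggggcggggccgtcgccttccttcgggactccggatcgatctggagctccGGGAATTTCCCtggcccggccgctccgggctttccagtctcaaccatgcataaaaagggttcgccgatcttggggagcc
The same site stood in all 3. A kappaB site by this pattern was in 18 of the 33 promoters of the list of CXC chemokines and NF-kappaB targets, against 10.7% of all promoters and 13.3% of those of tested genes. CXCL3 was at 20.2, 21.4 and 19 CPM in the controls and 53, 56.5 and 56.0 CPM with KD (1.45 ± 0.08, adjusted p = 9.16e-12). CXCL1 rose from 23.3, 25.5 and 25.9 CPM to 55.2, 63.6 and 60.3 CPM (1.26 ± 0.08) and CXCL2 from 7.84 ± 0.891 to 18.5 ± 0.807 CPM (1.24 ± 0.12). Reads that fit more than 1 of these copies could be split between them by the counting, so their separate values are uncertain to that extent.

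The list as a whole moved both ways. Of 30 tested members, 6 rose and 6 fell (9 and 5 with the GC offset). NFKBIZ, an NF-kappaB cofactor induced by it, rose (0.55 ± 0.08). BIRC3, an inhibitor of apoptosis and a classic NF-kappaB target, fell from 27.8 ± 2.54 to 17.4 ± 2.83 CPM (-0.67 ± 0.11, adjusted p = 0.000106). NOS2, which makes nitric oxide, fell from 13.9, 15 and 15.4 CPM to 1.31, 1.01 and 1.41 CPM, 11.9-fold (-3.57 ± 0.18, adjusted p = 9.3e-13). DUOX2, which makes hydrogen peroxide at the gut surface, fell 5.92-fold, from 8.27 ± 0.201 to 1.40 ± 0.566 CPM (-2.54 ± 0.22). Complement factor C3 had 86 counts in all in the controls and 12 with KD (-2.81 ± 0.50, adjusted p = 0.000203).

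Many interferon-stimulated genes fell. They encode antiviral proteins and are switched on through interferon-stimulated response elements in their promoters, and a low level is kept in many tumour lines without added interferon. Of 47 tested, 26 fell (55.3%) and 2 rose, with a median log2 fold change of -0.34. With the GC offset, 25 fell and 1 rose. The list's transcripts had a median GC content of 48.2%, in the middle quintile of genes.

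The promoters of IFIT1, IFIT3 and IFI44 are shown for their response elements (250 bases before the start site, RefSeq, GRCh38.p14). Capitals mark the element, GAAA followed after 2 bases by another GAAA, on either strand.
IFIT1 (chr10:89392373-89392622, plus strand): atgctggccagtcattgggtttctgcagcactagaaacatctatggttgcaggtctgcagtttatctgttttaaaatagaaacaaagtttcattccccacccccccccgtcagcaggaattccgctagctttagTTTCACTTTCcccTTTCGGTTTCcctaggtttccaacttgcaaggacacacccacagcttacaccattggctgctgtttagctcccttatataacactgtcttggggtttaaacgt
IFIT3 (chr10:89327747-89327996, plus strand): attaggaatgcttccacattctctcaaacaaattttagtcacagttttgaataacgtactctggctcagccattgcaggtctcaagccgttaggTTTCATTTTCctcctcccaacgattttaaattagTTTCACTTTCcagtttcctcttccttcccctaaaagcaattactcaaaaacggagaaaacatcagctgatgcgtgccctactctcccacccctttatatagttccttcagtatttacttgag
IFI44 (chr1:78649539-78649788, plus strand): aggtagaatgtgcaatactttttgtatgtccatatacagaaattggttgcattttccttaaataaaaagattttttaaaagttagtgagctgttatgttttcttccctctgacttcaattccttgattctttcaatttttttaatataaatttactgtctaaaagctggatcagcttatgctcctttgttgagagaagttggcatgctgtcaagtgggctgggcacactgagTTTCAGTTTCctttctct
The element stood more than once in IFIT1 and IFIT3. It was in 20 of the 38 promoters of the list that the RefSeq table holds (52.6%) and in 12 of the 20 whose genes fell (60.0%), against 3.07% of all promoters and 2.33% of those of tested genes.

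OASL, a sensor-like protein of the oligoadenylate synthetase family, was at 68.6, 64.0 and 66.2 CPM in the controls and 27.1, 26.1 and 30.1 CPM with KD (2.39-fold lower, -1.25 ± 0.08, adjusted p = 4.83e-11). IFIT1, which binds viral RNA lacking a cap methyl group, went from 28.3, 28.4 and 27.6 CPM to 8.29, 10.6 and 9.90 CPM (-1.55 ± 0.11, adjusted p = 3.1e-10). In both genes each KD library lay below each control. IFI44 fell from 17.8 ± 2.51 to 5.01 ± 0.852 CPM (-1.82 ± 0.15), the largest fall in the list, and IFI6 from 15.2 ± 1.51 to 4.76 ± 0.603 CPM (-1.68 ± 0.14). IFIT3 fell by 1.13 and IFIT2 by 1.05 on the log2 scale. OAS2 fell from 17.1 ± 1.62 to 7.06 ± 1.23 CPM, and ISG15, a ubiquitin-like modifier, from 58.1 ± 2.71 to 31.5 ± 2.85 CPM (-0.88 ± 0.08). The members that rose were DTX3L (0.25, lost without control 3 with adjusted p = 0.06) and GBP3 (0.37, lost without KD 2 and control 1 with adjusted p up to 0.0935). GBP3 was not called with the GC offset (adjusted p = 0.132).

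Some genes of antigen presentation fell as well. MHC class II molecules present peptides to helper T cells and need the master regulator CIITA. Of 12 tested class II genes and regulators, 6 fell and 0 rose (6 and 0 with the GC offset). CIITA was at 8.47, 10.3 and 11.4 CPM in the controls and 4.01, 3.71 and 5.39 CPM with KD (-1.20 ± 0.17, adjusted p = 1.65e-05). CD74, the invariant chain that guards the peptide groove, fell from 17.1, 14.3 and 15.4 CPM to 2.62, 2.77 and 2.36 CPM, 6.04-fold (-2.59 ± 0.16, adjusted p = 2.1e-11). HLA-DRA had 167 counts in all in the controls and 15 with KD (-3.46 ± 0.35), HLA-DPA1 had 108 and 30 (-1.85 ± 0.36), and HLA-DQB1 had 124 and 45 (-1.47 ± 0.30). RFXANK, a subunit of the factor that recruits CIITA, fell without the offset (-0.32, lost without control 1 and control 2 with adjusted p up to 0.0796) and was not called with it (adjusted p = 0.443). Of 21 class I presentation genes tested, 5 fell and 1 rose (6 and 1 with the GC offset). That is 28.6% called without the offset, near the 26.3% of all genes. The median log2 fold change of these genes was -0.11, and -0.03 with the offset. TAP1, part of the peptide transporter, fell by 0.37 on the log2 scale. HLA-C fell from 97.3 ± 8.21 to 71.9 ± 5.90 CPM (-0.44 ± 0.08), and TAPBP from 139 ± 2.30 to 111 ± 7.11 CPM. CALR, calreticulin, fell by 0.23. CANX, a chaperone of newly made glycoproteins, rose (0.34 ± 0.05). HLA genes have near copies and many alleles, so their counts are uncertain to that extent. LoVo makes little class II RNA, and markers of leukocytes, which make much, were at or near 0: CD3D, CD3E, MS4A1 and TYROBP had 0 counts in all 6 libraries, and the summed level of all 14 leukocyte markers was 5.31 to 7.08 CPM in the controls and 3.71 to 4.56 CPM with KD. Of the 2 leukocyte markers tested, CORO1A fell (117 counts against 51) and LYZ was not called.

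Another list joined D cyclins and CDK inhibitors with genes that are induced by DNA damage. D cyclins drive entry into the cell cycle and CDK inhibitors hold it back, and the damage-induced genes slow the cycle, repair DNA or start cell death. In this list 19 of 38 tested members fell and 3 rose (19 and 2 with the GC offset), with a median log2 fold change of -0.22. CDKN1A, which encodes the CDK inhibitor p21, was at 177, 166 and 172 CPM in the controls and 70.2, 68.6 and 72.5 CPM with KD (2.44-fold lower, -1.28 ± 0.06, adjusted p = 4.82e-13). The 3 values of each group lay close together and the groups were far apart. PHLDA3, an inhibitor of AKT, fell from 72.0 ± 4.48 to 38 ± 3.50 CPM (-0.92 ± 0.08). TP53INP1, a stress-induced nuclear protein, fell from 28.9 ± 2.12 to 12.8 ± 3.02 CPM (-1.17 ± 0.13). MDM2, a ubiquitin ligase, was at 183, 186 and 186 CPM against 127, 148 and 131 CPM (-0.45 ± 0.06, adjusted p = 1.8e-05). FDXR, a mitochondrial reductase, fell by 0.63 and PLK2, a kinase of the stress response, by 0.52 on the log2 scale. CCND1, cyclin D1, fell from 259 ± 9.56 to 207 ± 1.51 CPM (-0.32 ± 0.06), and CCND2, cyclin D2, rose from 45.1 ± 2.65 to 77.5 ± 2.45 CPM (0.78 ± 0.07, adjusted p = 2.4e-08). The other members that rose were CDKN1B (0.18, lost without KD 3, control 1, control 2 and control 3 with adjusted p up to 0.135) and RBL1 (0.29, lost without KD 2, KD 3 and control 3 with adjusted p up to 0.191). RBL1 was not called with the GC offset (adjusted p = 0.209).

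**Figure D5:**
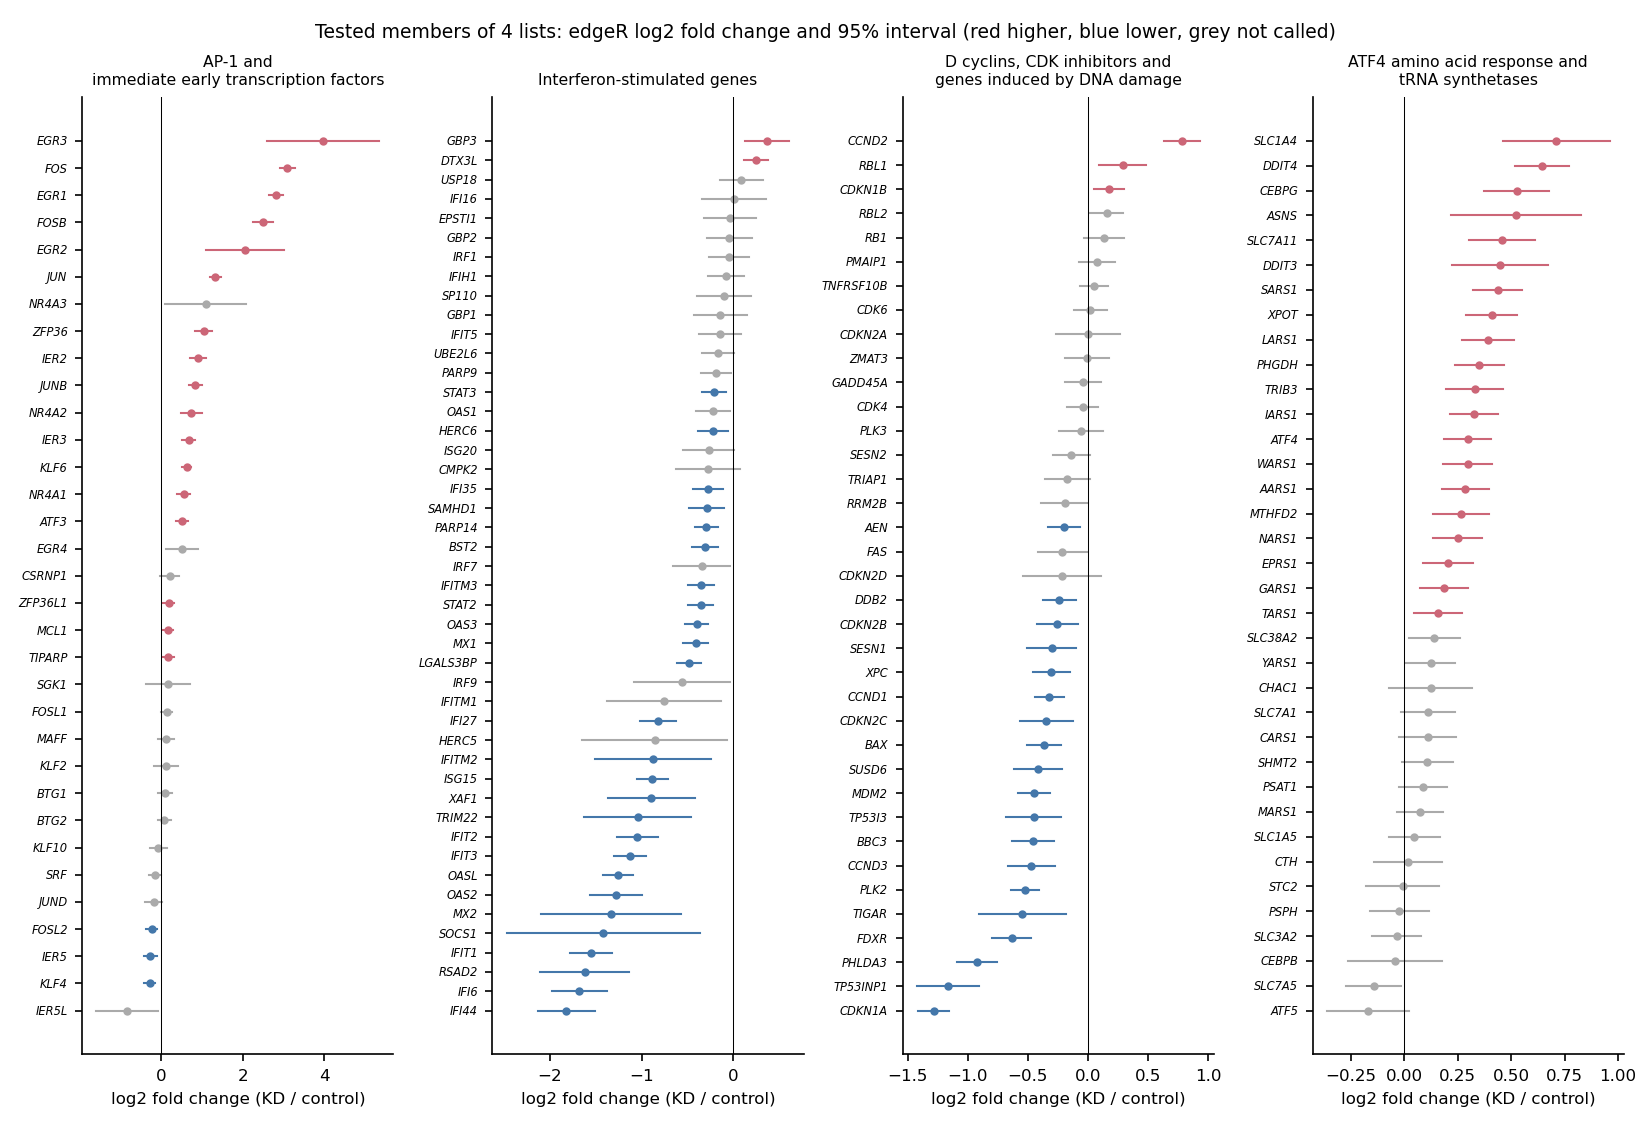
Log2 fold change of KD over control with its 95% interval (horizontal axis) for tested members of 4 lists, with a few that are not reported here left out, called members red (higher) or blue (lower) and the rest grey. EGR3, FOS and EGR1 top the immediate early list, IFI44, IFI6 and RSAD2 lie at the bottom of the interferon list, CDKN1A at the bottom of the list with CDK inhibitors, and no member of the ATF4 list was called lower.

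Proliferation genes did not move as a block. Of 48 tested G1/S and DNA replication genes, 2 rose and 7 fell, and with the GC offset 7 rose and 3 fell. The calls without the offset were 18.8% of this list, below the 26.3% of all genes. UHRF1, which maintains DNA methylation through replication, fell by both fits, from 128 ± 6.85 to 88.7 ± 6.68 CPM (-0.53 ± 0.07). PRIM1, a primase subunit, and RFC3, a clamp loader subunit, rose (0.56 and 0.38). Without KD 1, 7 members rose and 7 fell, and without control 1, 2 rose and 2 fell. Without control 3 or KD 3, 4 fell. Of 43 G2/M and kinetochore genes, 13 rose and 1, CCNF, fell. With the GC offset 7 rose and 1 fell, and without control 1, control 3 or KD 3 the count was 7 or 8. ECT2, needed for cytokinesis, rose by 0.35 ± 0.06 and HMMR, a spindle protein, by 0.34 ± 0.07. Of 18 histone genes tested, 5 fell and 0 rose (6 and 3 with the GC offset). The calls without the offset were 27.8% of this list, near the 26.3% of all genes. H2AC6 went from 12 ± 1.57 to 6.59 ± 0.919 CPM (-0.87 ± 0.15) and H2AX fell by 0.54 on the log2 scale. H1-2 (-0.69, lost without KD 2 with adjusted p = 0.0592), H2BC5 (-1.15) and H2BC12 (-0.93) were the others that fell. Histone genes have near-identical copies.

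Most of the keratins tested fell. Keratins form the intermediate filaments of epithelial cells, with KRT8, KRT18, KRT19 and KRT20 typical of the gut and KRT4, KRT5 and KRT16 of layered epithelia. Of 16 tested, 11 fell (68.8%) and 0 rose, with a median of -0.45 (9 and 1 with the GC offset). KRT4 was at 32.6, 31.2 and 33.0 CPM in the controls and 2.28, 2.45 and 2.83 CPM with KD, 12.8-fold lower (-3.67 ± 0.13, adjusted p = 8.68e-16). KRT5 fell 6.90-fold, from 17.4 ± 1.37 to 2.53 ± 0.538 CPM (-2.77 ± 0.16). KRT20, a marker of mature gut epithelium, fell from 13, 13 and 11.4 CPM to 6.21, 6.16 and 5.32 CPM (-1.08 ± 0.14). KRT80 fell by 0.73 on the log2 scale. KRT38 and KRT3, found by the rule for the largest falls, went from 13.6 ± 0.614 to 3.50 ± 0.491 CPM and from 5.92 ± 0.314 to 1.56 ± 0.563 CPM. KRT1 had 31, 28 and 28 counts in the controls and 0, 1 and 0 in the KD libraries. KRT8, among the most abundant messages here, fell from 5017 ± 226 to 4010 ± 278 CPM (-0.32 ± 0.05, adjusted p = 8.07e-05).

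The extracellular matrix and its remodelling shifted downward in several parts. Of 19 collagen chain genes tested, 11 fell (57.9%) and 0 rose, with a median of -0.79 (10 and 1 with the GC offset). COL17A1, a hemidesmosome collagen, was at 145, 129 and 127 CPM in the controls and 77.1, 73.0 and 82.6 CPM with KD (-0.79 ± 0.07, adjusted p = 1.51e-08). COL7A1, which anchors the basement membrane, fell from 33.5 ± 2.35 to 17.0 ± 1.28 CPM (-0.97 ± 0.10). COL3A1, a fibrillar collagen, fell from 12.9, 12.7 and 12.7 CPM to 2.14, 1.89 and 2.42 CPM (-2.57 ± 0.17), and COL13A1 from 200 counts to 17 (-3.55 ± 0.34). Of 13 markers of fibroblasts and endothelium, 3 (COL1A2, CDH5 and KDR) had 0 counts in all 6 libraries. Others were detected at low levels, such as COL1A1 (means of 1.22 and 0.76 CPM) and PECAM1 (0.65 and 0.60 CPM). The summed level of the 13 markers was 16.28 to 17.34 CPM in the controls and 4.65 to 6.01 CPM with KD, a gap that COL3A1 carried. COL3A1 was the only 1 of the 5 tested that was called.

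Genes of cell anchorage went both ways. Of 29 tested members of the list of integrins, laminins and basement membrane genes, 8 rose and 9 fell (8 and 7 with the GC offset). Without KD 3, control 2 or control 3, 5 rose. HSPG2, the heparan sulfate proteoglycan perlecan, was at 80.0, 75.8 and 75.1 CPM in the controls and 34.3, 23.3 and 31.7 CPM with KD (-1.38 ± 0.10, adjusted p = 3.54e-10). LAMA5, a laminin chain, fell from 488 ± 36.0 to 297 ± 48.5 CPM (-0.72 ± 0.08), LAMC1 from 224 ± 5.74 to 157 ± 0.746 CPM (-0.51 ± 0.06) and AGRN, agrin, from 374 ± 19 to 225 ± 31.2 CPM (-0.74 ± 0.08). ITGB8 and ITGA2, integrin subunits, rose by 0.78 ± 0.13 and 0.32 ± 0.07, and FERMT1, which activates integrins in epithelia, rose by 0.47 ± 0.06. Among proteases and their inhibitors, 3 of 25 rose and 9 fell (4 and 7 with the GC offset). TIMP3, a matrix-bound inhibitor of metalloproteinases, was at 12.2, 9.99 and 13 CPM in the controls and 1.31, 1.01 and 0.471 CPM with KD, 12.6-fold lower (-3.64 ± 0.23, adjusted p = 6.24e-11). PLAT, the tissue plasminogen activator, fell from 18.8 ± 0.856 to 6.23 ± 0.551 CPM (-1.60 ± 0.13). SERPINE2, an inhibitor of such proteases, fell from 1256 ± 15.3 to 963 ± 23.3 CPM (-0.38 ± 0.05), and SERPINB5, maspin, rose from 119 ± 3.42 to 179.7 ± 13.3 CPM (0.60 ± 0.06). The metalloproteinases ADAM9 (0.25) and ADAM10 (0.24, lost without control 1 with adjusted p = 0.052) rose without the offset only.

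Of 30 tested genes linked with a mesenchymal state or with actomyosin, 10 fell and 1, TPM1 (0.40 ± 0.06), rose, with 10 and 1 with the GC offset. THBS1, thrombospondin 1, was at 703, 661 and 685 CPM in the controls and 362, 345 and 362 CPM with KD (-0.94 ± 0.05, adjusted p = 1.1e-11). TNC, tenascin C, fell from 56.4 ± 5.60 to 23.6 ± 1.72 CPM (-1.25 ± 0.09), CALD1, caldesmon, from 15.6 ± 1.79 to 4.68 ± 0.424 CPM (-1.74 ± 0.14), and MYL9, a myosin light chain, from 8.48 ± 0.294 to 2.54 ± 0.447 CPM (-1.74 ± 0.18). FLNA, the actin cross-linker filamin A, fell from 2376 ± 171 to 1774 ± 200.2 CPM (-0.42 ± 0.07). ZEB1, a repressor of epithelial genes, fell by 0.42 on the log2 scale (adjusted p = 0.00432). VIM, vimentin, was not called (0.09 ± 0.13, adjusted p = 0.659).

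Epithelial junction genes leaned the other way. Of 44 tested, 12 rose (27.3%) and 5 fell (17 and 6 with the GC offset), while without KD 1, 11 rose and 9 fell, and without control 3, 10 and 3. CLDN4, a tight junction claudin, was at 286, 280.4 and 304 CPM in the controls and 507, 483 and 456 CPM with KD (0.73 ± 0.06, adjusted p = 2.22e-09). CLDN2, a pore-forming claudin, rose from 79.5 ± 2.45 to 121 ± 5.63 CPM (0.61 ± 0.06). EPCAM rose from 280.1 ± 13.2 to 374 ± 14.1 CPM (0.42 ± 0.06), OCLN, occludin, by 0.46 ± 0.07, and ESRP1, an epithelial splicing factor, by 0.65 ± 0.10. NECTIN4, an adhesion molecule, fell from 5.77 ± 0.374 to 1.65 ± 0.301 CPM (-1.80 ± 0.22), and JUP, plakoglobin, by 0.39 on the log2 scale. DSC3, a desmosomal cadherin, fell too (-0.32, lost without KD 1, control 2 and control 3 with adjusted p up to 0.0769). CLDN15 (-0.27) and ESRP2 (-0.20, lost without KD 2, KD 3, control 1 and control 3 with adjusted p up to 0.195) fell without the offset only. CDH1, E-cadherin, was not called (0.09 ± 0.06, adjusted p = 0.284).

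Signalling pathways that shape the gut epithelium changed in part. Of 30 Wnt pathway and beta-catenin target genes, 13 fell (43.3%) and 4 rose (13 and 5 with the GC offset). MSX1, a homeobox factor, was at 98.6, 87.7 and 99.6 CPM in the controls and 46.7, 36.6 and 45.5 CPM with KD (-1.15 ± 0.08, adjusted p = 5.12e-10). AXIN2, a feedback inhibitor and the usual readout of Wnt signalling, fell from 279 ± 3.22 to 222 ± 2.16 CPM (-0.33 ± 0.06). WNT5A, a non-canonical ligand, fell by 0.80 and FZD7, a receptor, by 0.53 on the log2 scale, and TCF7L1 fell from 11.7 ± 1.89 to 5.48 ± 0.508 CPM. PTPRO, a receptor phosphatase, rose by 0.89 ± 0.13, and EPHB2, a target in the crypt, by 0.34 ± 0.09. PROM1 (0.37) and CEMIP (0.26, lost without KD 1, control 1 and control 3 with adjusted p up to 0.0788) rose as well. Of 33 TGF-beta, BMP and ID genes, 11 rose and 9 fell (10 and 8 with the GC offset), with 7 rising without KD 3. BMP2, a ligand, rose from 27.9 ± 1.54 to 49.4 ± 2.53 CPM (0.82 ± 0.08) and ID1, a BMP target, from 129 ± 5.82 to 193 ± 11.1 CPM (0.58 ± 0.06). BMP7 fell by 0.63 on the log2 scale, and LTBP2, which is related to the proteins that store TGF-beta in matrix, fell from 10.7 ± 0.196 to 3.08 ± 0.841 CPM (-1.80 ± 0.18). Of 25 YAP and TEAD targets, 10 fell and 5 rose (9 and 6 with the GC offset). IGFBP3 fell from 24.6 ± 2.82 to 7.53 ± 1.19 CPM (-1.71 ± 0.13) and FSTL1 from 48.1 ± 1.39 to 25.3 ± 1.50 CPM (-0.93 ± 0.08), and NT5E, an enzyme that makes adenosine, rose by 0.70 ± 0.09. GADD45B (0.59), MYOF (0.33), CCN1 (0.25, lost without control 3 with adjusted p = 0.0625) and F3, tissue factor (0.24), were the others that rose.

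The IGF axis included some of the steepest falls. Of 13 tested genes of this list, 5 fell and 1, IGF2, rose (5 and 3 with the GC offset). IGFBP6, which binds and restrains IGF2, was at 75.4, 82.2 and 88.5 CPM in the controls and 21.7, 17.5 and 17.3 CPM with KD (4.35-fold lower, -2.12 ± 0.09, adjusted p = 4.83e-14). H19, the imprinted non-coding RNA next to IGF2, had 212 counts in all in the controls and 35 with KD (-2.60 ± 0.27). IGF2 had 32 and 90 counts (1.47 ± 0.38, adjusted p = 0.00653), and it was not called without KD 3 (adjusted p = 0.0595). IGFBP3, described above, and the receptor adaptors IRS1 (-0.17, lost without KD 2, KD 3, control 1 and control 3 with adjusted p up to 0.229) and IRS2 (-0.36) were the others that fell.

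Genes of the differentiated gut surface rose in part. Of 31 tested enterocyte surface and absorptive genes, 13 rose (41.9%) and 2 fell, with a median of 0.17 (15 and 3 with the GC offset). CDH17, an intestinal cadherin, was at 272, 283 and 267 CPM in the controls and 442, 497 and 471 CPM with KD (0.78 ± 0.06, adjusted p = 8.11e-10). REG4, a secreted lectin, went from 184, 201 and 189 CPM to 353, 365 and 346 CPM (0.89 ± 0.06, adjusted p = 8.4e-11). CFTR, the chloride channel, rose from 277 ± 1.84 to 389 ± 12.7 CPM (0.49 ± 0.06), and CEACAM5, which encodes the tumour marker CEA, from 68.5 ± 5.04 to 99.7 ± 3.07 CPM (0.54 ± 0.07). PLS1 and MYO1A, parts of the microvillus core, rose by 0.65 ± 0.08 and 0.60 ± 0.09. VIL1, villin, another microvillus protein, fell from 99.4 ± 3.75 to 68.6 ± 7.49 CPM (-0.54 ± 0.07), and AQP1, a water channel, had 193 counts against 18 (-3.42 ± 0.45).

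Goblet cell genes and mucins went both ways. Of 12 goblet cell genes tested, 5 rose and 2 fell (6 and 2 with the GC offset). AGR2, a disulfide isomerase that folds mucins, was at 14.5, 16.7 and 11.8 CPM in the controls and 36.4, 41.2 and 35.8 CPM with KD (1.40 ± 0.11, adjusted p = 1.52e-09). GALNT12, which starts mucin glycosylation, rose from 17.0 ± 0.606 to 33.9 ± 2.61 CPM (0.99 ± 0.09), and FCGBP, a mucus protein, by 0.80 ± 0.16. ST6GALNAC1 (0.80) and CREB3L1 (0.63, lost without KD 1 and control 3 with adjusted p up to 0.135) were the others that rose. The members that fell were KLK10 (-0.50, lost without control 1 with adjusted p = 0.0587) and BCAS1 (-0.49, lost without KD 1, control 1 and control 2 with adjusted p up to 0.1). Of 11 mucins tested, 1 rose and 2 fell (2 and 2 with the GC offset). Without the offset 27.3% were called, near the 26.3% of all genes. MUC2, the gel-forming mucin of the colon, rose from 69.3 ± 4.79 to 88.9 ± 7.99 CPM (0.36 ± 0.07). MUC6 fell by 0.93 on the log2 scale. MUC16, a membrane mucin known as CA125, had 124, 83 and 92 counts in the controls and 0, 1 and 2 in the KD libraries, which were all but empty of it. Of 12 S100 calcium-binding proteins tested, 4 rose and none fell (7 rose with the GC offset). S100P went from 33.2, 46.4 and 49.6 CPM to 109, 118 and 89.4 CPM (1.29 ± 0.11, adjusted p = 5.71e-09) and S100A14 from 135 ± 4.23 to 235 ± 14.7 CPM (0.80 ± 0.06). S100A10 (0.38) and S100A16 (0.26) rose less.

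Transcription factors of the gut lineage went both ways, with 8 of 22 tested higher and 6 lower (9 and 6 with the GC offset). KLF5, a factor of proliferating crypt cells, rose from 267 ± 22.3 to 378 ± 7.78 CPM (0.50 ± 0.06), ELF3 from 162 ± 8.27 to 238 ± 18.3 CPM (0.56 ± 0.07) and HNF4G from 21.7 ± 1.32 to 35 ± 3.09 CPM (0.69 ± 0.09). HES1, a Notch target, rose by 0.54 ± 0.07. CDX2, which specifies intestine, fell from 238, 199 and 216 CPM to 169, 139.8 and 158 CPM (-0.48 ± 0.07, adjusted p = 3.18e-05), and SOX4 from 65.2 ± 1.16 to 43.8 ± 1.93 CPM (-0.57 ± 0.07). The 15 markers of colorectal epithelium were all tested, with 6 higher and 6 lower, and their summed level was 8488 to 9053 CPM in the controls and 7504 to 8122 CPM with KD. Each was detected in both groups. The extraction protocol in the labels speaks of retinas. Of 14 retina markers, 4 had 0 counts in all 6 libraries, among them RCVRN, CRX and GNAT1. The summed level of the 14 was 6.49 to 9.38 CPM in the controls and 7.23 to 10.57 CPM with KD. RPE65 was the highest, with means of 2.67 and 3.58 CPM. Of the 4 retina markers tested, BEST1 was called (67 counts against 128, adjusted p = 0.0283), and not in 5 of the 6 fits that left out 1 library (adjusted p up to 0.178). Of the 12 hepatocyte markers, HPX was the only 1 tested and fell (223 counts against 90).

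Ribosomal protein messages rose together by a small amount. Of 78 tested cytosolic ribosomal protein genes, 58 rose (74.4%) and 0 fell, with a median log2 fold change of 0.25 (61 and 0 with the GC offset). Without control 1, 34 rose. Protein-coding genes with ribosomal protein names, a set chosen by name and not by the list, took 6.20 to 6.93% of the counts in the controls. In the KD libraries they took 7.34 to 8.03%. RPL22 was at 153, 156 and 155 CPM in the controls and 194, 216 and 210.4 CPM with KD (0.42 ± 0.06, adjusted p = 1.87e-05). RPL4 rose from 2578 ± 71.3 to 3198 ± 133 CPM (0.31 ± 0.05), RPS6 from 1311 ± 64.2 to 1646 ± 38.8 CPM (0.33 ± 0.05) and RPL13A from 1944 ± 86.9 to 2340 ± 84.8 CPM (0.27 ± 0.05). Ribosomal protein genes have many processed pseudogenes that can share reads. EEF1A1, the elongation factor that brings tRNA to the ribosome, rose from 15769 ± 187 to 18388 ± 156 CPM (0.22 ± 0.04), among the largest gains in CPM.

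RNA polymerase I and ribosome assembly factors changed in fewer members. Of 69 tested, 17 rose and 5 fell (13 and 3 with the GC offset), and 8, 8, 9 and 11 rose without control 1, control 3, KD 3 and control 2. Without control 1, control 3 or KD 3, 3 fell. DDX21, the partner of SLERT, was at 375, 367 and 379 CPM in the controls and 447, 475 and 454 CPM with KD (0.29 ± 0.05, adjusted p = 0.000324). NPM1, nucleophosmin, rose from 1418 ± 53.3 to 1800 ± 114 CPM (0.34 ± 0.05), and TAF1D, a subunit of the promoter selectivity factor of polymerase I, by 0.40 ± 0.06. TAF1C, another subunit of that factor, fell by 0.46 on the log2 scale (adjusted p = 0.000104). POLR1A, the largest subunit of the enzyme, fell narrowly (-0.16 ± 0.06, adjusted p = 0.0417), and it was not called in 5 of the 6 fits that left out 1 library (adjusted p up to 0.132). BOP1 (-0.29), RRS1 (-0.29, lost without KD 3 and control 3 with adjusted p up to 0.0831) and MYBBP1A (-0.22, lost without control 1 with adjusted p = 0.0822) fell without the offset only.

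The amino acid response and tRNA charging moved upward. ATF4 is translated when amino acids run short or the endoplasmic reticulum is stressed, and it drives amino acid transport, synthesis and tRNA charging. Of 36 tested genes, 20 rose (55.6%) and none fell, with a median of 0.20, and 27 rose with the GC offset. ATF4 rose from 617 ± 16.7 to 757 ± 27.5 CPM (0.30 ± 0.05). DDIT4, an inhibitor of mTORC1, was at 204, 225 and 231 CPM in the controls and 362, 330.4 and 338 CPM with KD (0.64 ± 0.06, adjusted p = 4.66e-08). SARS1 and LARS1, which charge tRNA with serine and leucine, rose by 0.44 ± 0.05 and 0.39 ± 0.06. PHGDH, which starts serine synthesis, rose from 511 ± 10.7 to 652 ± 37.1 CPM (0.35 ± 0.06), and SLC7A11, the cystine importer, from 102 ± 6.31 to 140.3 ± 15.7 CPM (0.46 ± 0.07). In the endoplasmic reticulum list, 14 of 39 rose and 2 fell (12 and 4 with the GC offset). XBP1, a factor of the unfolded protein response, rose from 115 ± 2.51 to 159 ± 4.69 CPM (0.46 ± 0.06). CRELD2 fell by 0.44 on the log2 scale, and PDIA5, a disulfide isomerase, fell too (-0.25, lost without KD 2, KD 3, control 1 and control 3 with adjusted p up to 0.168). Without KD 1, 4 members fell. HSPA5, the main chaperone of that compartment, missed the threshold (0.14 ± 0.05, adjusted p = 0.0568). Among heat shock chaperones and co-chaperones, 6 of 29 fell and 2 rose (9 and 2 with the GC offset). Without the offset 27.6% were called, near the 26.3% of all genes. BAG3, a co-chaperone, fell from 58.1 ± 5.06 to 36.3 ± 3.19 CPM (-0.68 ± 0.08), and CRYAB, a small heat shock protein, had 59 counts against 6. HSPA9 (0.40) and HSPD1 (0.16, lost without KD 2, KD 3, control 1 and control 3 with adjusted p up to 0.108), the mitochondrial chaperones, rose, HSPD1 without the offset only.

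Some mitochondrially encoded RNAs rose by small amounts. Of 15 mitochondrially encoded RNAs tested, 7 rose and 1, MT-RNR1, fell (6 and 1 with the GC offset). All genes whose names begin with MT-, a set chosen by name and not by the list, took 5.09 to 5.53% of the counts in the controls. With KD they took 5.79 to 6.15%. MT-CO1, a subunit of cytochrome c oxidase, was at 15499, 16165 and 16284 CPM in the controls and 18833, 18739 and 18114 CPM with KD (0.22 ± 0.04, adjusted p = 0.000465). MT-CO2 rose from 5045 ± 349 to 6051 ± 389 CPM (0.26 ± 0.05). The ribosomal RNAs MT-RNR1 (-0.20 ± 0.06) and MT-RNR2 (0.24 ± 0.05) went opposite ways. MT-RNR1 was not called without control 1, control 3 or KD 3 (adjusted p up to 0.151). Of 75 nuclear-encoded respiratory chain subunits, 13 rose and 2 fell (13 and 0 with the GC offset), and without control 1, 2 rose. NDUFA11 (-0.41, lost without KD 3, control 1 and control 3 with adjusted p up to 0.148) and NDUFA13 (-0.61, lost without KD 2, KD 3, control 2 and control 3 with adjusted p up to 0.0811) were the members that fell, both without the offset only. Without control 3, KD 2 and KD 3, 8, 8 and 9 rose.

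Hypoxia and glycolysis genes fell more often than they rose. Of 41 tested, 14 fell (34.1%) and 4 rose (15 and 6 with the GC offset), with 9 falling without control 3. SLC2A3, a glucose transporter, was at 73.6, 80.7 and 77.0 CPM in the controls and 41.2, 39.3 and 39.1 CPM with KD (-0.95 ± 0.07, adjusted p = 8.78e-10). ADM, adrenomedullin, fell from 50.2 ± 2.28 to 27.0 ± 0.716 CPM (-0.89 ± 0.08), TXNIP, which blocks glucose uptake, from 63.5 ± 0.629 to 39.5 ± 3.61 CPM (-0.68 ± 0.08), and PFKFB3, a regulator of glycolysis, by 0.50 on the log2 scale. EGLN3, an oxygen sensor, fell by 1.04. EPAS1, which encodes HIF-2 alpha, rose from 33.5 ± 0.991 to 49.4 ± 2.96 CPM (0.56 ± 0.08), and HK2, a hexokinase, by 0.25 ± 0.06. P4HA1 (0.26, lost without KD 3 and control 3 with adjusted p up to 0.193) and PDK1 (0.23, lost without KD 3, control 1 and control 3 with adjusted p up to 0.183) rose without the offset only. HIF1A was not called (0.12 ± 0.07, adjusted p = 0.229).

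Lipid genes were split. Of 29 cholesterol genes tested, 6 fell and 2 rose (7 and 3 with the GC offset). Without the offset 27.6% were called, near the 26.3% of all genes. TM7SF2, a sterol reductase, fell from 69.6 ± 1.57 to 39.3 ± 2.61 CPM (-0.83 ± 0.07). MYLIP, which degrades the LDL receptor, rose (0.81), and MSMO1 rose without the offset only (0.24, lost without KD 2, KD 3, control 1 and control 3 with adjusted p up to 0.154). Of 31 fatty acid genes, 7 rose and 6 fell (9 and 7 with the GC offset). FASN, fatty acid synthase, was at 1352, 1210 and 1345 CPM in the controls and 1021, 761 and 958 CPM with KD (-0.51 ± 0.08, adjusted p = 2.39e-05), and ACLY, which makes its substrate, fell by 0.40. PPARG, a lipid-sensing nuclear receptor, rose from 117 ± 4.70 to 172 ± 4.53 CPM (0.56 ± 0.06). Among NRF2 and iron genes, 7 of 33 rose and 6 fell (10 and 6 with the GC offset). GPX2, a gut glutathione peroxidase, rose from 25.6 ± 2.86 to 55.8 ± 4.86 CPM (1.12 ± 0.09, adjusted p = 2.92e-09), and NQO1 fell by 0.42. Of 11 metallothionein and zinc genes, 4 rose and 2 fell (4 and 2 with the GC offset). MT1E and MT2A, which bind zinc and copper, rose from 7.37 ± 1.72 to 18.9 ± 1.71 CPM and from 6.88 ± 1.03 to 13.7 ± 1.89 CPM. MT1M (1.21) and the zinc exporter SLC30A1 (0.55) rose too, and the transporters SLC30A10 (-1.42, lost without KD 1, KD 3, control 2 and control 3 with adjusted p up to 0.159) and SLC39A10 (-0.34) fell. Metallothioneins are near copies of each other and their reads can be split.

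Of the genes in the series title, HUNK rose and RBM15 was not called. HUNK, a kinase related to AMPK, was at 1.72, 2.58 and 2.0 CPM in the controls and 4.63, 3.58 and 5.05 CPM with KD, 94 counts against 199 (1.07 ± 0.23, adjusted p = 0.00167). Every KD library lay above every control. On the authors' FPKM, limma did not call HUNK (adjusted p = 0.0954 on log2(FPKM + 1) and 0.114 on log2(FPKM + 0.1)). Of 21 AMPK-related kinases tested, 3 rose and 3 fell (14.3% each way, beside 12.6% and 13.7% of all genes), and 2 rose and 1 fell with the GC offset. They were HUNK, MELK (0.30) and PRKAA2 (0.35, lost without KD 2 and control 3 with adjusted p up to 0.0852) upward, and NUAK2 (-0.56), STK11 (-0.36) and BRSK1 (-0.91, lost without KD 2, KD 3, control 2 and control 3 with adjusted p up to 0.203) downward. PRKAA2, STK11 and BRSK1 were not called with the GC offset. RBM15 was at 31.0, 30.5 and 30.01 CPM against 32.8, 32.0 and 33.1 CPM (0.10 ± 0.08, adjusted p = 0.41), and was not called by either fit. Of 26 m6A writers, erasers and readers, 3 rose and 1 fell (1 and 2 with the GC offset, and 7 rose without KD 1). The calls without the offset were 15.4% of this list, below the 26.3% of all genes. LRPPRC, an RNA-binding protein, was the member that rose by both fits (0.29 ± 0.06). YTHDC2 (0.31), RBMX (0.17, lost without KD 3, control 1, control 2 and control 3 with adjusted p up to 0.0806) and the eraser ALKBH5 (-0.22, lost without KD 2, KD 3 and control 3 with adjusted p up to 0.113) were called without the offset only.

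Axon guidance genes, which also steer epithelial migration, fell more often than they rose: 14 of 36 tested semaphorins, plexins, ephrins and netrins fell and 4 rose, but with the GC offset 9 fell and 8 rose, and without control 1, 9 fell. PLXNB3, a plexin receptor, fell from 9.68 ± 1.32 to 2.45 ± 0.582 CPM (-1.99 ± 0.19) and PLXNB2 from 551 ± 50.2 to 359.5 ± 45.0 CPM (-0.62 ± 0.08). SEMA5A, a semaphorin, fell by 1.32 on the log2 scale, and EFNB2, an ephrin, rose from 38.5 ± 2.90 to 66.8 ± 3.93 CPM (0.79 ± 0.08). NRP2 (0.57), NEO1 (0.39) and SEMA4B (0.20, lost without KD 1, KD 3, control 2 and control 3 with adjusted p up to 0.149) were the others that rose.

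Some of the 25 largest rises and 25 largest falls lay in no list. Among the rises, NHS, a regulator of the actin cytoskeleton, went from 2.45, 2.32 and 1.93 CPM to 8.63, 8.74 and 7.68 CPM (1.90 ± 0.18, adjusted p = 5.35e-08). VGLL3, a cofactor of TEAD, rose from 4.49 ± 0.717 to 10.4 ± 2.92 CPM (1.22 ± 0.19), PRKCH, a protein kinase C, from 1.74 ± 0.449 to 4.33 ± 0.868 CPM (1.31 ± 0.25), and the receptor GPRC6A from 1.65 ± 0.291 to 4.57 ± 0.692 CPM (1.46 ± 0.24). Among the falls, FAM151A went from 38.9, 37.0 and 34.4 CPM to 8.42, 6.98 and 7.95 CPM (-2.24 ± 0.11, adjusted p = 3.46e-13). L1CAM, an adhesion molecule tied to invasion, fell from 9.24 ± 1.44 to 2.22 ± 0.351 CPM (-2.06 ± 0.19), GRIN2C, a glutamate receptor subunit, from 18.7 ± 0.314 to 4.47 ± 0.778 CPM (-2.07 ± 0.14), and PTGES, a prostaglandin E synthase, from 8.76 ± 1.14 to 2.23 ± 0.189 CPM (-1.97 ± 0.19). PDE2A, a phosphodiesterase, fell from 6.07 ± 1.22 to 1.07 ± 0.323 CPM (-2.48 ± 0.26). The groups did not overlap in any of these genes, as the rule for naming them requires.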

How the data were processed

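RNA-seq counts per gene were taken from the table that the authors deposited, and the submitters' processing notes name the aligner HISAT2 2.1.0 and the build GRCh38. Counter, strand setting and annotation: not given in the sources used here. The authors also deposited FPKM for the same libraries, which were used as an alternative only. Of the count columns, 6 were used and 6 columns of other samples were not. Columns were matched to samples by heading and title. All 62656 genes of the count table entered edgeR's filterByExpr on the 6 libraries, which kept 99.77% of the counts. The genes kept were tested with TMM factors and edgeR's quasi-likelihood test (edgeR 4.0.16, limma 3.58.1, DESeq2 1.42.0, R 4.3.3). Symbols are from a gene name list and, where it had none, from GENCODE v29, which held 58220 of the identifiers. All p-values were adjusted by Benjamini and Hochberg over all genes tested, and calls are at an adjusted p under 0.05. The scripts were tested on simulated data.

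Total counts were 14.46 to 16.11 M per library, and the common biological coefficient of variation was 6.41%. Within groups, libraries correlated at 0.9935 to 0.9952 and differed by more than sampling noise. The GC offset is a spline on the GC content of each gene's longest transcript, fitted per library, and was chosen after the data were seen. DESeq2, limma voom, RLE and upper quartile factors, no filter, limma on log2(FPKM + 1) and log2(FPKM + 0.1), the replicate number as a block, and leaving out each library were tried as alternatives.

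The comparison, the 41 pathway lists and the 5 marker lists (1433 pathway symbols, 4 of which matched no gene) were chosen with earlier results of these data known, so no list is independent evidence of its direction. Named genes are TBRG4, its snoRNAs, DDX21, RBM15 and HUNK; the 25 largest rises and 25 largest falls among called genes without overlap and with an average log2 CPM of 1 or more; the 12 largest gains and 12 largest losses in CPM; the first member and the 8 called members with the smallest p in each list; members of counts of 5 or fewer; and markers. EGFR, VIM, CDH1, HIF1A and HSPA5, which were not called, are first members of their lists, and not every first member is reported. A few other called members were picked from the lists after their values were seen. Some members of the lists are not reported here by name. Promoters are from the RefSeq table (GRCh38.p14), which held 1107 of the pathway symbols.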

Additional observations from a re-analysis of the deposited data

How the results depend on the processing

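The count of 4278 calls was 3675 by DESeq2, 4238 by limma voom, 4251 with RLE factors, 4300 with upper quartile factors and 4071 without a filter. On the authors' FPKM, limma called 1727 genes on log2(FPKM + 1), 578 higher and 1149 lower, and 1845 on log2(FPKM + 0.1), 625 higher and 1220 lower. There 33.5% and 33.9% of the calls were higher, against 47.9% in the counts, and the cause was not tested. Leaving out 1 library gave 2769 to 4813 calls in all, 1265 to 2310 higher and 1504 to 2503 lower. The lowest counts came without control 3 (2769) and without control 1 (2809). With the GC offset there were 3520 calls, and 3901 with the GC offset and the replicate block. With the replicate number as a block there were 5588, 2755 higher and 2833 lower. Deviations of same-numbered libraries correlated at 0.12, 0.15 and -0.00, and those of the other pairs at -0.14 to 0.03. Control and KD libraries 1 and 2 correlated best with their own number, and libraries 3 did not. Whether the numbers mark paired cultures or batches was not tested, and the labels do not say.

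Of the 272 named genes that were called, 232 kept the call in all 6 fits that left out 1 library and 242 kept it with the GC offset. On log2(FPKM + 1) 75 of them were not called, on log2(FPKM + 0.1) 71 were not, and 86 lost the call under at least 1 alternative. DESeq2 did not call EGR2, BRSK1, IRS1 and PDIA5 (adjusted p from 0.0558 to 0.217). Of the named genes, 3 changed sign in some fit, none of them called. HIF1A turned to -0.0397 with the GC offset and -0.0381 with the GC offset and replicate block. VIM ran from -0.0612 to 0.29 over the fits that left out 1 library. SNORA5C, with few counts, ran there from -0.213 to 0.452. It was 0.164 with the GC offset, 0.196 with the GC offset and replicate block, 0.013 with the replicate block, 0.0761 by limma voom, 0.0383 on log2(FPKM + 0.1) and 0.0232 on log2(FPKM + 1). Depth limits genes with few counts, such as SNORA5A, KRT1, CRYAB and C3, most.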

Other observations

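The most abundant messages shifted by small but called amounts. The cytoplasmic actins went opposite ways. ACTG1, gamma actin, rose from 3811 ± 137 to 4347 ± 212 CPM (log2 fold change 0.19 ± 0.05, adjusted p = 0.00602), and ACTB, beta actin, fell (-0.16 ± 0.05, adjusted p = 0.0204). The fall of ACTB was not called with the GC offset (adjusted p = 0.287) or in the fits without KD 2, KD 3 or control 3 (adjusted p up to 0.102), and the rise of ACTG1 was larger with the offset (0.35). HNRNPA1, an RNA-binding protein of splicing, rose by 0.24 ± 0.05, and RPLP0, a stalk protein of the ribosome, by 0.20 ± 0.04. PKM, the last enzyme of glycolysis, was lower (-0.20 ± 0.05), as was AHNAK, a giant scaffold protein (-0.26 ± 0.06). PLEC, plectin, and MYH9, a non-muscle myosin, were lower without the offset only (-0.38 and -0.25).

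Among low-expressed genes that lay in no pathway list, LGI2, a secreted protein, rose from 3.22 ± 0.253 to 7.59 ± 0.710 CPM (1.24 ± 0.17) and PELI2, a ubiquitin ligase of innate signalling, from 1.64 ± 0.280 to 4.23 ± 0.772 CPM (1.37 ± 0.25). The non-coding RNAs LINC01133 and NR2F1-AS1 rose by 1.31 ± 0.31 and 1.39 ± 0.25. NR2F1-AS1 is an antisense gene, and without a stated strand setting its reads cannot be told apart from those of an overlapping partner. LRRN4, a leucine-rich repeat membrane protein, fell from 9.76 ± 0.890 to 1.69 ± 0.412 CPM (-2.53 ± 0.20). NPBWR1, a neuropeptide receptor, fell from 7.15 ± 1.48 to 1.22 ± 0.370 CPM (-2.55 ± 0.24) and has no GC value here.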
